A study of Mus musculus with 2 samples.

Results

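The monocyte progenitor genes described here are 7 genes given by name: F13a1, Ly86, Ms4a6c, Ccr2, Mpeg1, Cx3cr1 and Csf1r. All 7 were found, each in 1 row, among the 32285 genes counted in both libraries. They were followed through Kit+ CD45.2+ bone marrow cells of the mouse collected 10 weeks after transplantation, with 1 control library and 1 library labelled Utx deleted. Kit (CD117) is the receptor carried by blood stem and progenitor cells, and CD45.2 is a variant of a leukocyte surface protein used to tell donor from host cells. The labels name neither the strain, the age of the animals, the Cre driver nor the number of animals pooled, and they give no further genotype for the control. UTX, encoded by Kdm6a, is a histone demethylase that belongs to the MLL3 and MLL4 complexes named in the title of the series. Each cell was profiled by CITE-seq, which counts messenger RNA as unique molecular identifiers (UMIs, 1 per captured molecule) together with 15 antibody tags, 2 of them hashtags. The labels do not say whether the hashtags mark animals.

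Filtering left 7011 cells in the control library and 7206 in the one labelled Utx-deleted, with medians of 12367 and 11816.5 UMIs per cell, and 13 of the kept barcodes occurred in both libraries. Kdm6a itself was counted at 109.8 CPM (107.9 to 111.8) in control cells and at 103.2 CPM (101.3 to 105.1) in cells of the other library, where CPM is UMIs of a gene per 1000000 gene UMIs of the same cells. In monocyte-progenitor-like cells it stood at 94.5 CPM (88.6 to 100.6) and 104.9 CPM (100.3 to 109.7). These counts come from the 3′ end of the transcript and do not check whether an internal exon is missing, so the deletion rests on the label. Each group is a single library, so nothing could be tested across replicates. Every difference below is one between these libraries, and the 95% intervals (exact Poisson for levels, exact binomial for shares) cover counting error only. Since a UMI marks 1 molecule captured at its 3′ end, gene length does not enter, but genes may still differ in capture.

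The 7 genes lie on 4 chromosomes (GENCODE M21, GRCm38). F13a1 (chr13:36867178-37050244, minus strand) and Ly86 (chr13:37345208-37419036, plus strand) are 295 kb apart. Ms4a6c (chr19:11469366-11482192) and Mpeg1 (chr19:12460779-12465283) are 979 kb apart on the plus strand. Ccr2 (chr9:124101950-124113557, plus) and Cx3cr1 (chr9:119901616-120069879, minus) are 4032 kb apart, and Csf1r lies at chr18:61100598-61132149 on the plus strand. The neighbours F13a1 and Ly86, and the pair Ms4a6c and Mpeg1, went in opposite directions between the libraries within monocyte-progenitor-like cells.

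Monocytes arise in bone marrow from progenitors shared with neutrophils and dendritic cells, under transcription factors such as IRF8, PU.1 and KLF4 and under the growth factor receptor CSF1R. Newly made monocytes leave the marrow through the chemokine receptor CCR2, and CX3CR1 is gained as they mature. F13a1 encodes the A subunit of coagulation factor XIII, Ly86 encodes MD-1, which pairs with the Toll-like receptor relative CD180, Ms4a6c encodes a membrane-spanning four-domain protein, and Mpeg1 encodes perforin-2, a pore-forming protein directed against bacteria.

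F13a1 and Mpeg1 stood at the opposite ends of the 7 genes when the libraries were compared within monocyte-progenitor-like cells, so the 250 bases before their RefSeq start sites (GRCm38.p6) are shown, 5′ to 3′ on the strand of the gene. The F13a1 window is chr13:37050245-37050494 and the Mpeg1 window is chr19:12460520-12460769. F13a1 has another entry, chr13:37049214-37049463, which is not shown and held none of the letters searched. For Mpeg1, the bases just after this start site were not found whole in a GENCODE transcript of the gene. Capitals mark the letters GAGGAA, the core bound by PU.1-type ETS factors.
F13a1: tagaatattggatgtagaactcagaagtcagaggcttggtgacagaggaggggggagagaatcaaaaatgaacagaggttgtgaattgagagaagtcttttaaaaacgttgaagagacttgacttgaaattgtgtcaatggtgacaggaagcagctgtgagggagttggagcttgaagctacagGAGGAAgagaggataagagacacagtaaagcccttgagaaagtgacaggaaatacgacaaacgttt
Mpeg1: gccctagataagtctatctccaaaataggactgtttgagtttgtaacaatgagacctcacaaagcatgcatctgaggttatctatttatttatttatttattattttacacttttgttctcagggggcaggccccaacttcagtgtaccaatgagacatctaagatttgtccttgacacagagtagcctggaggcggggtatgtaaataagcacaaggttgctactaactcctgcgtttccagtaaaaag
The letters searched, on both strands of the 7 promoter entries of 6 of the 7 genes (F13a1 having 2 entries), were GAGGAA, the ETS-IRF composite (GGAA and GAAA with any 2 bases between them), the IRF element (GAAA and GAAA with any 2 bases between them) and the C/EBP pair TTGCNNAA. The ETS-IRF and IRF letters can overlap each other. The single match was the GAGGAA in this F13a1 window, which begins at position -66 from the start site. Among 32851 promoter windows of the same length, 23.3% held GAGGAA, 2.30% the ETS-IRF composite, 2.98% the IRF element and 9.56% the C/EBP pair, so a GAGGAA is common, and a window without these letters says nothing about the factor. The promoter of Csf1r was not analysed here.

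The monocyte-progenitor-like cells were found by clustering without the 7 genes, and were named from 8 other markers, of which 6 were each detected in at least 25% of the cells. Their leading genes by fold were Apba1, Itga1 and Irf8. Irf8, the factor that directs progenitors towards monocytes, stood at 488.8 CPM in the control cells of the cluster and 473.0 in the Utx-deleted cells, against 26.4 and 18.0 CPM in all other cells. Tifab stood at 125.7 and 142.0 CPM in the cluster and at 8.07 and 10.5 outside it. Of the 8 markers, S100a4 did not mark the cluster in the Utx-deleted library (3.48 CPM inside and 3.63 outside, against 23.7 and 3.68 in the control library), and Ctss did so less there (23.7 and 9.12, against 51.0 and 5.58). The cells still carried many transcripts of neutrophil progenitors: the 7 markers of that type summed to 17499 and 20299 CPM, with none at 0. The macrophage markers C1qa and Cd5l were at 0 UMIs in both libraries, and the 10 macrophage markers summed to 23.3 and 16.0 CPM. The cells carried the Kit tag at medians of 126 and 130 UMIs.

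The monocyte-progenitor-like cells made up 302 of 7011 control cells, or 4.31% (3.84 to 4.81%), and 636 of 7206 Utx-deleted cells, or 8.83% (8.18 to 9.50%). The difference was smaller when each cell was assigned by its own marker score, as given below with the other alternatives. The 2 hashtag populations of the control library had nearly the same share, 4.40% and 4.39%. In the Utx-deleted library the share was 6.35% for hashtag 1 and 11.4% for hashtag 2, so that the populations of this 1 library differed from each other by more than the first differed from the control. Monocyte-progenitor-like cells were large in RNA, with median UMI counts of 32976 and 28430. Their share of the kept UMIs was 9.48% for the control and 16.3% for the Utx-deleted library.

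Over all kept cells, F13a1 was the gene with the widest gap. It was counted at 95.7 CPM (93.9 to 97.6) in the control library and at 261.7 CPM (258.7 to 264.7) in the Utx-deleted library, a log2 ratio of 1.45 (1.42 to 1.48). Cells with an F13a1 UMI numbered 793 (11.3%) and 1339 (18.6%), and each such cell held a mean of 13.1 and 22.4 UMIs, so both the number of cells and the count per cell were higher. Ms4a6c stood at 71.4 and 125.4 CPM (log2 ratio 0.81, 0.77 to 0.85), with 1125 and 1386 positive cells and 6.86 and 10.3 UMIs in each. For hashtags 1 and 2 the log2 ratios were 1.10 and 1.73 for F13a1, and 0.46 and 1.09 for Ms4a6c.

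Csf1r, the receptor for the growth factors CSF1 and IL-34, was counted at 7.53 and 11.96 CPM (log2 ratio 0.67, 0.54 to 0.80). Ccr2 stood at 17.5 and 23.1 CPM (0.40, 0.32 to 0.49) and Ly86 at 24.7 and 31.7 CPM (0.36, 0.29 to 0.44). Ly86 was found in more cells of the Utx-deleted library, 484 against 795, but at fewer UMIs in each, 5.51 against 4.57. Cx3cr1 was at 8.04 and 7.88 CPM, and the interval of its log2 ratio, -0.17 to 0.11, included 0. For hashtags 1 and 2 the log2 ratios were 0.33 and 0.94 for Csf1r and 0.40 and 0.50 for Ccr2. They were 0.13 and 0.61 for Ly86, and -0.20 and 0.17 for Cx3cr1.

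Mpeg1 went the other way. It was counted at 21.3 CPM in the control library and at 14.5 in the Utx-deleted library (log2 ratio -0.56, -0.65 to -0.46), and cells with an Mpeg1 UMI numbered 1336 (19.1%) and 810 (11.2%). The counting interval lay above 0 for 5 of the 7 genes and below 0 for 1. Among 13558 genes with at least 100 UMIs, it lay above 0 for 15.8% and below 0 for 52.4%. Of the 7 genes, 1 (F13a1) was 2-fold higher or more in the Utx-deleted library, as were 1.39% of the 13558, and 0 were lower by as much, as were 5.36%. The median log2 ratio was 0.40 over the 7 genes and -0.11 over all 13558.

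These totals mix the number of monocyte-progenitor-like cells with the level in each, and the cluster held most of the UMIs of 5 of the 7 genes. It contained 82.4% of the F13a1 UMIs of the control library and 83.9% of those of the Utx-deleted library. For Ly86 the shares were 76.2% and 83.1%, for Ms4a6c 68.6% and 82.2%, for Csf1r 64.7% and 75.4% and for Ccr2 60.6% and 54.0%. Mpeg1 (22.8% and 31.9%) and Cx3cr1 (26.9% and 43.1%) were found mainly outside it. Of the F13a1 difference of 166.0 CPM between the libraries, 140.7 CPM lay in the cluster. Of the Mpeg1 difference of -6.80 CPM, -0.24 CPM lay in the cluster and -6.57 CPM in other cells. When only the 4 largest named classes were counted, each with the same weight in both libraries, the log2 ratio of F13a1 was 0.79. Those of Ms4a6c and Csf1r fell to 0.28 and 0.05, and those of Ly86 (-0.27) and Ccr2 (-0.46) changed sign. That calculation also leaves out the dendritic-cell-like cells, which held 305 and 880 UMIs of Ccr2.

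Within the monocyte-progenitor-like cells, the 7 genes kept 1 order of level in both libraries, F13a1, Ms4a6c, Ly86, Ccr2, Csf1r, Mpeg1 and Cx3cr1 from high to low. Csf1r and Mpeg1 were neighbours whose intervals overlapped in the control library (47.1 to 56.0 and 46.9 to 55.7 CPM). In the Utx-deleted library they lay apart, at 55.3 and 28.3 CPM. The interval of the ratio between libraries lay above 0 for 2 of the 7 genes and below 0 for 3. Among 10253 genes with at least 100 UMIs in these cells, the interval lay above 0 for 16.9% and below 0 for 21.3%. None of the 7 was 2-fold higher or lower, as were 0.829% and 1.38% of the 10253 genes. The median log2 ratio was -0.14 for the 7 genes and -0.01 for all genes.

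F13a1 was higher in the Utx-deleted cells, at 831.9 CPM (814.3 to 849.7) in the control library and 1346 CPM (1329 to 1363) in the other. This was a log2 ratio of 0.69 (0.66 to 0.73), above that of 98.0% of the genes tested. The hashtag populations gave 837.2 and 832.9 CPM in the control library and 1344 and 1351 CPM in the Utx-deleted library. The gap between the hashtag populations of each library was far smaller than the difference between the libraries. Hashtag populations are parts of 1 library, so this gap does not measure a spread between replicates. Ms4a6c was also higher, at 516.3 against 631.7 CPM (log2 ratio 0.29, 0.24 to 0.34), with hashtag values of 512.0 and 521.0 against 607.3 and 639.8 CPM. Ms4a6c sits in a family of related genes, and whether reads are split between them was not tested. Its relatives Ms4a6b (89.4 against 63.4 CPM, log2 ratio -0.49) and Ms4a6d (6.73 against 2.52 CPM, -1.41) were lower where Ms4a6c was higher.

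Ly86, Ccr2 and Mpeg1 were lower in the Utx-deleted monocyte-progenitor-like cells. Ly86 stood at 198.2 CPM (189.7 to 207.0) and 161.8 CPM (156.1 to 167.7), a log2 ratio of -0.29 (-0.37 to -0.21). Its hashtag values were 204.8 and 194.4 CPM in the control library and 164.1 and 162.9 CPM in the Utx-deleted library, and they did not overlap.

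Ccr2, the receptor by which monocytes leave the marrow, stood at 111.8 and 76.6 CPM (log2 ratio -0.55, -0.66 to -0.43), with hashtag values of 108.8 and 113.8 against 83.1 and 70.9 CPM. Mpeg1 stood at 51.2 and 28.3 CPM (-0.85, -1.03 to -0.68), lower than all but 1.97% of the genes tested. Its hashtag values were 48.0 and 53.9 CPM in the control library and 34.9 and 24.7 CPM in the Utx-deleted library, and both of the latter lay below both of the former.

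The fractalkine receptor Cx3cr1 (22.8 and 20.8 CPM, log2 ratio -0.14, -0.37 to 0.11) and Csf1r (51.4 and 55.3 CPM, 0.10, -0.05 to 0.26) had intervals that included 0. Differences up to those bounds were not detectable at this depth, which came to 234 and 388 UMIs of Cx3cr1 and 527 and 1031 of Csf1r. When each cell was assigned by its own marker score instead of its cluster, the Cx3cr1 ratio was 0.32 and that of Csf1r 0.26. The Ccr2 ratio was then 0.07, and that of Mpeg1 was -0.23. At resolution 2 the Csf1r ratio was -0.17.

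**Figure D1:**
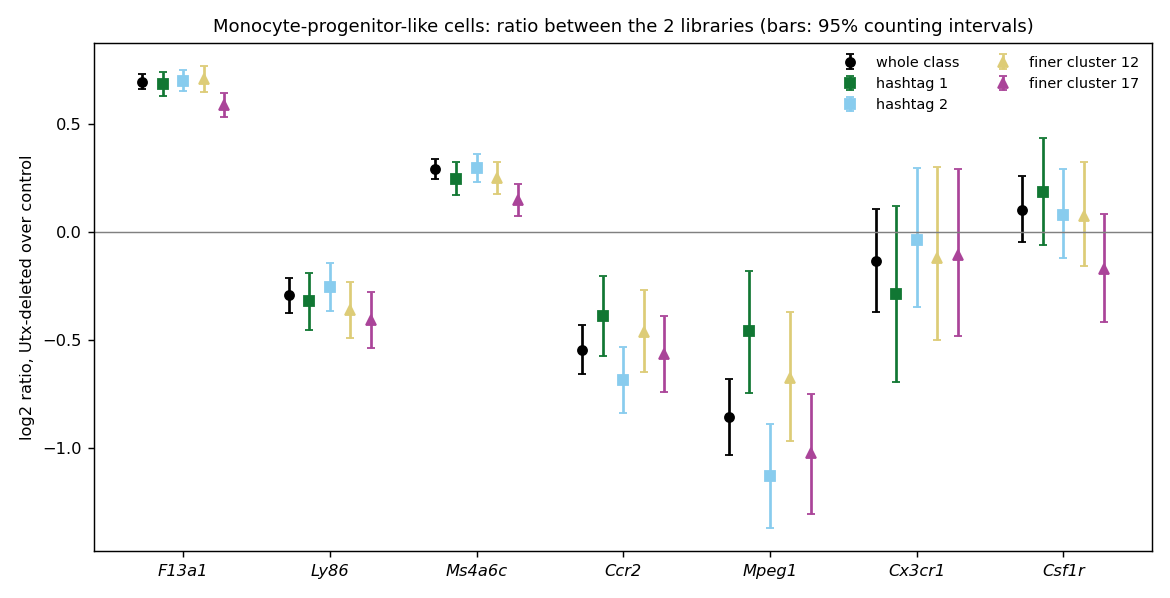
Log2 ratio of CPM in the Utx-deleted over the control library for each of the 7 genes within monocyte-progenitor-like cells, with 95% counting intervals as bars. Circles are the whole class, squares the 2 hashtag populations and triangles 2 finer clusters, and F13a1 (0.69) and Ms4a6c (0.29) lie above 0 in all 5 while Ly86, Ccr2 and Mpeg1 lie below 0.

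A finer clustering divided these cells. Finer cluster 12, with less of the cycling genes (985.4 and 728.8 CPM summed), held 106 control cells and 380 Utx-deleted cells, which was 35.1% and 59.7% of the class. Finer cluster 17, with more (2248 and 2251 CPM), held 105 and 203 cells, or 34.8% and 31.9%. A cluster led by Flt3 and Dntt, genes of early lymphoid and dendritic potential, held 79 control cells of the class (26.2%) but 12 of the Utx-deleted library (1.89%).

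The difference in F13a1 was present inside both of the larger groups, with log2 ratios of 0.71 (0.65 to 0.77) in finer cluster 12 and 0.59 (0.53 to 0.64) in finer cluster 17. Mpeg1 gave -0.68 (-0.97 to -0.37) and -1.02 (-1.30 to -0.75), Ccr2 -0.46 and -0.56, Ly86 -0.36 and -0.41, and Ms4a6c 0.25 and 0.15. All 5 intervals left out 0 in both. With those groups pooled and the rest of the class left out, the ratios were 0.64 for F13a1, 0.22 for Ms4a6c, -0.37 for Ly86, -0.53 for Ccr2 and -0.88 for Mpeg1. Most of the few remaining cells of the class (9 and 37) lay in finer cluster 8, which was led by Elane and took the name neutrophil-progenitor-like. Over the whole of that cluster the ratio was 0.48 (-0.06 to 1.09) for Ccr2 and 0.07 (-0.37 to 0.53) for Ly86.

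The share of cells with a UMI and the count per positive cell were compared after each cell of the class had been thinned to 10000 UMIs, a depth chosen after the data had been seen. This kept 299 control and 631 Utx-deleted cells and left out 3 and 5. F13a1 was found in 92.6% (89.1 to 95.3%) and 96.5% (94.8 to 97.8%) of them, and each positive cell held 9.25 and 14.1 UMIs. The share is close to its ceiling at this depth. When the cells were thinned to 2000 UMIs, F13a1 was found in 70.1% and 82.6%, at 2.61 and 3.31 UMIs in each positive cell, so both the share and the count were higher in the Utx-deleted library. Before thinning, the shares were 96.7% and 98.0%, and the share in T or NK cells, which should lack the gene, was 6.06% (2 of 33) and 0 of 37 cells, which allows a share of cells with a UMI of up to 8.11% if a count of 0 is taken to allow 3. The T or NK cells had medians of 7376 and 6994 UMIs.

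Ccr2 and Mpeg1 were found in fewer of the Utx-deleted cells. Ccr2 was found in 59.5% (53.7 to 65.1%) of control and 40.1% (36.2 to 44.0%) of Utx-deleted cells, with 1.87 and 2.01 UMIs in each positive cell. Mpeg1 was found in 36.5% (31.0 to 42.2%) and 18.2% (15.3 to 21.5%), with 1.61 and 1.48 UMIs. Fewer cells had either transcript, at nearly the same count in those that did.

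Unthinned, Ccr2 was in 84.1% and 59.1% of the cells and Mpeg1 in 67.9% and 39.5%. Mpeg1 was in 0 of 33 and 0 of 37 T or NK cells, and Ccr2, which was frequent in that class, was in 0.72% and 0.65% of maturing neutrophils. Counts near 1 UMI per positive cell cannot separate cells without the transcript from cells with little of it.

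Ms4a6c was found in 95.7% and 95.4% of the thinned cells at 5.47 and 6.84 UMIs. Ly86 was found in 80.3% (75.3 to 84.6%) and 76.1% (72.5 to 79.3%) at 2.65 and 2.22 UMIs. The intervals overlapped for both. Cx3cr1 (20.7% and 14.9%) and Csf1r (35.1% and 42.3%) went in opposite directions, also with overlapping intervals.

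**Figure D2:**
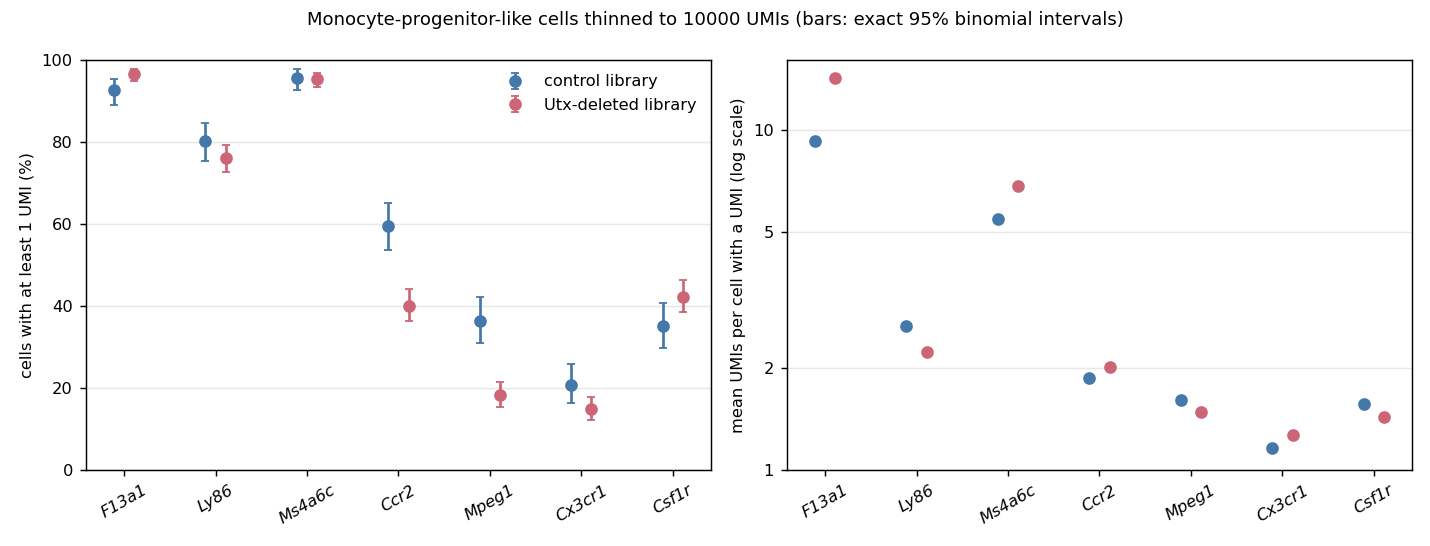
Monocyte-progenitor-like cells thinned to 10000 UMIs. Left, percent of cells with at least 1 UMI of each gene, with exact 95% binomial intervals as bars; right, mean UMIs per positive cell on a log axis, both for the control (blue) and Utx-deleted (red) library. In the left panel Ccr2 (59.5% and 40.1%) and Mpeg1 (36.5% and 18.2%) differ while F13a1 is near its ceiling in both libraries; in the right panel F13a1 differs (9.25 and 14.1).

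The genes were detected together in these cells. At 10000 UMIs the median cell had 4 of the 7 in either library. At least 5 of 7 were found in 40.8% (35.2 to 46.6%) of control cells and 28.2% (24.7 to 31.9%) of Utx-deleted cells, and all 7 in 3.01% (9 cells) and 1.11% (7 cells). Before thinning, all 7 were found in 25.2% and 10.7%.

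For 20 of 21 pairs in each library the genes were found together more often than the product of their shares, by a median factor of 1.03 and 1.02. At 2000 UMIs, where few cells had the rarer genes, this held for 13 of 21 pairs in the control library and 18 of 21 in the Utx-deleted library. At 10000 UMIs the highest factor in the control library was that of the chemokine receptors Ccr2 and Cx3cr1 (1.25), and the highest in the Utx-deleted library that of Ccr2 and Mpeg1 (1.56, against 1.05 in the control). These are descriptions of cells that share a library, with no test.

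**Figure D3:**
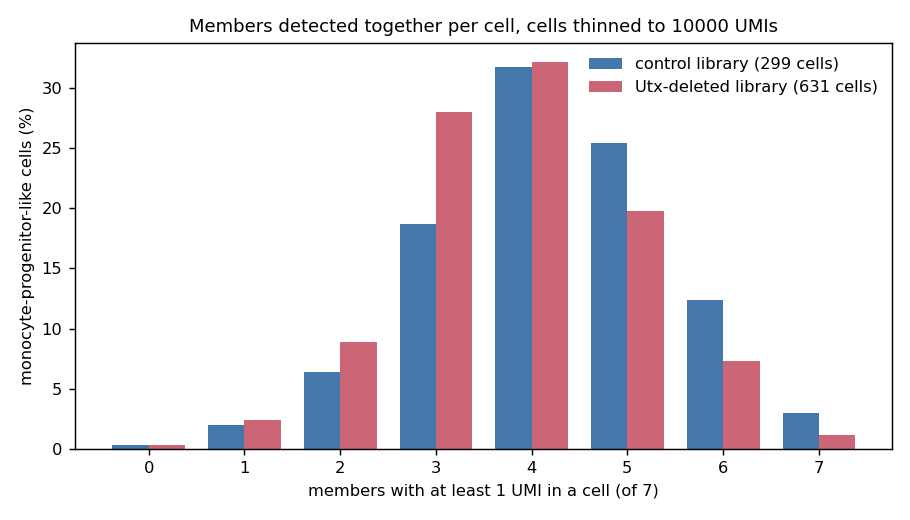
Percent of monocyte-progenitor-like cells (vertical axis) by the number of the 7 genes with at least 1 UMI (horizontal axis), cells thinned to 10000 UMIs, 299 control cells in blue and 631 Utx-deleted cells in red. The control bars are taller at 5, 6 and 7 genes and the Utx-deleted bars at 2 and 3.

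Across all kept cells thinned to 2000 UMIs, a depth that most cells reached, at least 3 of the 7 genes were found in 128 of 6846 control cells, or 1.87% (1.56 to 2.22%), and in 249 of 7127 Utx-deleted cells, or 3.49% (3.08 to 3.95%). For hashtag 1 alone, the interval of the difference between these shares included 0. Of the 128 and 249 cells, 84.4% and 82.3% were monocyte-progenitor-like and 10.9% and 14.1% dendritic-cell-like, and 0 were maturing neutrophils. Without thinning, at least 3 of the 7 were found in 8.57% and 13.4% of the kept cells, 601 and 969 cells, of which 297 and 617 were monocyte-progenitor-like. Within the monocyte-progenitor-like cells, 35.9% and 32.3% had at least 3 of the 7 at 2000 UMIs, against 0.31% and 0.68% of other cells.

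Outside the monocyte-progenitor-like cells the 7 genes parted by cell class. The 37 control and 89 Utx-deleted dendritic-cell-like cells, led by Cd74 and the MHC class II genes, had the highest Ccr2 (425.4 and 451.2 CPM) and Mpeg1 (394.7 and 283.5 CPM). They also had Cx3cr1 (55.8 and 74.9 CPM) and Csf1r (53.0 and 73.8 CPM) at or above the monocyte-progenitor-like level. Their F13a1 was 62.8 and 242.5 CPM. This class held 13.5% and 21.3% barcodes with both hashtags, and its summed maturing-neutrophil markers were 88415 and 175945 CPM. The part of mixed barcodes in these levels was not tested.

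In HSC/MPP-like cells, the class with the markers of stem and multipotent progenitors (567 and 279 cells), F13a1 was 31.3 and 100.3 CPM (log2 ratio 1.68, 1.52 to 1.84). Ms4a6c was 85.3 and 92.8 CPM there (0.12, -0.01 to 0.25). Mpeg1 was counted at 125 UMIs in the control and 11 in the Utx-deleted cells, 7.92 and 1.24 CPM (-2.56, -3.72 to -1.79). In neutrophil-progenitor-like cells (362 and 536), led by Elane and Prtn3, F13a1 was 96.9 and 216.2 CPM (1.16, 1.06 to 1.26). Mpeg1 was 12.01 and 6.50 CPM there (-0.88, -1.29 to -0.49), and Cx3cr1 was 10.3 and 4.59 CPM (-1.15, -1.62 to -0.71).

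Maturing-neutrophil-like cells (4459 and 5243), the largest class, had little of 6 of the 7 genes and more Mpeg1, at 921 and 437 UMIs, or 19.5 and 6.96 CPM (log2 ratio -1.49, -1.66 to -1.32). Mpeg1 was found in 16.1% of these control cells and 6.98% of the Utx-deleted ones. Clusters 2, 4, 6 and 9 held most of the class in the control library and clusters 0, 1, 3 and 5 in the Utx-deleted library. In cluster 11, made of mitotic cells of both libraries (350 and 295 cells), Mpeg1 was 29.3 and 11.2 CPM (-1.37, -1.85 to -0.95). F13a1 was 2.73 and 4.30 CPM in maturing neutrophils. The ratio of F13a1 to Mpeg1 UMIs was 16.3 and 47.6 in the monocyte-progenitor-like cells but 0.14 and 0.62 in the maturing neutrophils.

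Over the 4 largest named classes and the 2 hashtag populations, Mpeg1 was lower in the Utx-deleted library in 8 of 8 comparisons. F13a1 was higher in 7 of 8, the exception being hashtag 1 in maturing neutrophils (3.76 and 3.25 CPM). Ms4a6c was higher in 7 of 8 and Ly86 lower in 7 of 8. Ccr2 was lower in 5 of 8, Cx3cr1 in 6 and Csf1r in 5. These 8 values share the same pair of libraries and are not replicates of the deletion. Over each whole class, the counting interval lay above 0 in 4 of 4 classes for F13a1 and in 2 for Ms4a6c. It lay below 0 in 4 classes for Mpeg1, 2 for Ly86, 2 for Cx3cr1, 1 for Ccr2 and 1 for Csf1r. Ly86 was 13.8 and 16.4 CPM in HSC/MPP-like cells (log2 ratio 0.26, -0.05 to 0.57). Maturing-neutrophil markers, summed over 9 genes, were also found where they do not belong. They stood at 4539 and 7953 CPM in monocyte-progenitor-like cells and 1892 and 18594 CPM in T or NK cells, but at 6818 and 1423 CPM in B-cell-like cells. Of the monocyte-progenitor-like cells, 0.99% and 4.40% carried both hashtags. S100a8, 1 of the 9 markers, was at 1125 and 2121 CPM in them, with hashtag values of 930 and 1068 against 1023 and 1517 CPM. The part of mixed barcodes was not tested. Maturing neutrophils themselves held F13a1, Ly86, Ms4a6c and Ccr2 at 0.57 to 4.30 CPM.

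**Figure D4:**
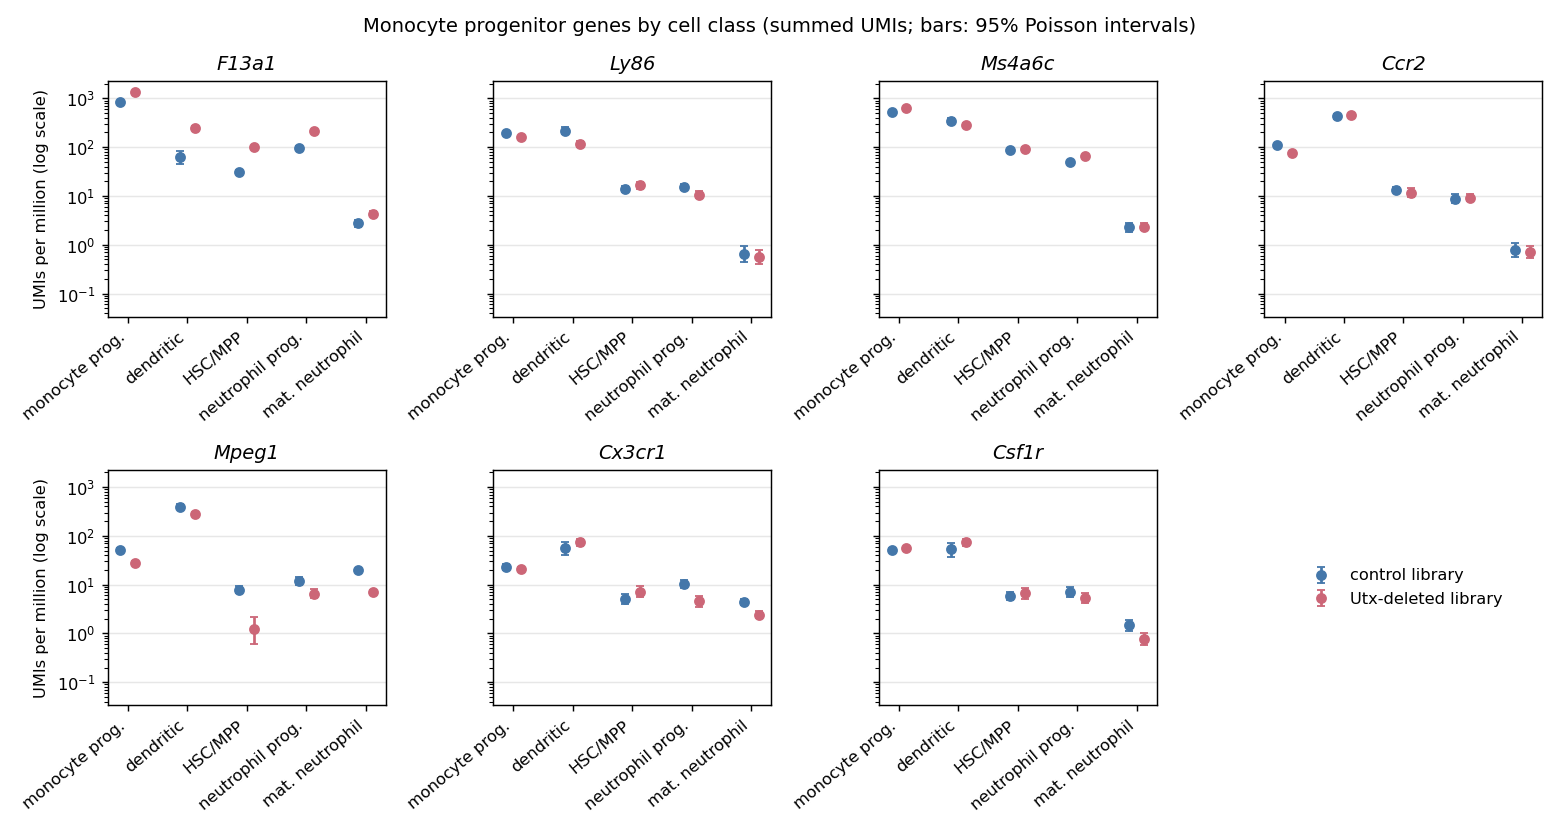
CPM (log axis) of each of the 7 genes in 5 cell classes, with the control library in blue, the Utx-deleted library in red and 95% Poisson intervals as bars. F13a1 is higher in red in every class shown (831.9 and 1346 in monocyte progenitors) and Mpeg1 lower (51.2 and 28.3), while Ccr2 and Mpeg1 peak in dendritic-cell-like cells.

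Some small classes also held these transcripts, though few of all UMIs of each gene. Cx3cr1 was 359.9 CPM in the 2 control basophil- or mast-cell-like cells and 335.8 CPM in the 17 of the Utx-deleted library, where 16 of 17 cells had it. Ccr2 was 250.2 and 159.4 CPM in T or NK cells, in 14 of 33 and 10 of 37 cells. Ly86 was 261.1 and 177.9 CPM in an unnamed cluster led by the immunoglobulin gene Igkc (18 and 30 cells), and F13a1 was found in 24 of 69 control B-cell-like cells at 38.7 CPM.

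The partners of the 7 genes were read in the monocyte-progenitor-like cells. Cd180, the receptor that the Ly86 product pairs with, stood at 16.3 CPM (167 UMIs) in control cells and 3.86 CPM (72 UMIs) in Utx-deleted cells, a log2 ratio of -2.07 (-2.50 to -1.67). Its hashtag values were 17.2 and 15.7 against 4.32 and 3.55 CPM, and it was also lower in finer clusters 12 (-1.83) and 17 (-2.38). Tyrobp, the adaptor DAP12, was 495.0 and 360.0 CPM (-0.46), and Ptpn6, a phosphatase acting on receptor signals, was 95.3 and 80.9 CPM (-0.24). Of the 9 ligands and partners listed, only these 3 reached 100 UMIs. The ligands Il34, Ccl7, Ccl12 and Cx3cl1 were at 0 UMIs in both libraries, and Csf1 had 25 and 24 UMIs.

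Of 13 monocyte transcription factors, 10 reached 100 UMIs. None was higher by 2-fold, 1 was lower by that much, and the median log2 ratio was 0.08. Irf8 (-0.05, -0.10 to 0.00), Klf4 (0.09, -0.09 to 0.28) and Spi1, which encodes PU.1 (247.4 and 257.8 CPM, 0.06, -0.01 to 0.13), had ratios near 0 over the class. Within finer cluster 17, however, Klf4 was lower in the Utx-deleted cells (61.1 and 40.9 CPM, -0.58, -0.83 to -0.33), as was Irf8 (531.1 and 453.6 CPM, -0.23, -0.31 to -0.15), while in finer cluster 12 the intervals of both included 0. Klf4 was at 1.93 CPM in the 187 control cells of the Flt3-led cluster, 79 of them in the class. Irf5, a factor in Toll-like receptor responses, was the 1 below, at 14.6 and 6.27 CPM (-1.22, -1.58 to -0.86).

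Of 24 other monocyte genes, 19 reached 100 UMIs, with 1 at least 2-fold higher, 4 lower and a median of -0.16. Ctss, Fn1, Emb, Tifab, Ly6c2 and S100a4 of this list had also served to name the class, with Irf8 and Klf4. Fn1, which encodes fibronectin, was the 1 above, at 5.95 and 59.8 CPM (log2 ratio 3.31, 2.96 to 3.73). Its hashtag values were 5.54 and 5.56 CPM in the control library and 73.6 and 49.1 CPM in the Utx-deleted library. The 4 below were S100a4, a calcium-binding protein of maturing monocytes (23.7 and 3.48 CPM, -2.75), Pld4, a lysosomal nuclease (33.3 and 11.3 CPM, -1.56), Ms4a6d (-1.41) and Ctss, the protease cathepsin S (51.0 and 23.7 CPM, -1.10). Clec12a was slightly higher over the class (349.4 and 419.5 CPM, 0.26) and in finer clusters 12 (0.23) and 17 (0.25). Ly6c2 was 1335 and 1516 CPM over the class (0.18) but lower within finer clusters 12 (1691 and 1596 CPM, -0.08, -0.13 to -0.04) and 17 (1554 and 1465 CPM, -0.09, -0.13 to -0.04). All 187 control cells of the Flt3-led cluster, whether in the class or not, had 293.4 CPM of it.

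All 10 neutrophil-lineage granule genes reached 100 UMIs in the monocyte-progenitor-like cells, with 0 at least 2-fold higher, 1 lower (Fcnb, 27.0 and 12.3 CPM) and a median of 0.28, their sum being 19805 and 24601 CPM. The primary granule gene Elane had ratios of 0.08 and 0.02 within finer clusters 12 and 17, and Prtn3 of -0.10 and -0.09. The secondary granule genes Camp (-0.08 and 3.18) and Ngp (0.38 and 3.22) were far higher in finer cluster 17 of the Utx-deleted library. Camp was at 819 and 1335 CPM over the class, but its hashtag values were 650 and 797 against 574 and 913 CPM. Ngp was at 386 and 744 CPM, with hashtag values of 291 and 420 against 341 and 507 CPM. The hashtag values leave out barcodes with both hashtags (3 and 28 cells of the class), whose part was not tested. The 8 cycling genes had 0 past 2-fold and a median of -0.12. Of 10 dendritic-cell genes 3 reached 100 UMIs, among them Flt3 (36.7 and 5.52 CPM, -2.72), with a median of -0.35. Flt3 had ratios of -2.21 within finer cluster 12 (45 and 30 UMIs) and -1.28 within finer cluster 17 (28 and 21 UMIs). Over the whole of the Flt3-led cluster its ratio was -0.39. Of 10 macrophage genes 3 reached 100 UMIs, with a median of 0.58. Adgre1, which encodes F4/80, was lower (13.2 and 3.64 CPM, -1.84, -2.29 to -1.42) and Vcam1, an adhesion molecule, was higher (3.12 and 5.79 CPM, 0.86, 0.31 to 1.51). The hashtag values of Vcam1 were 0.82 and 5.37 CPM (4 and 28 UMIs) in the control library. In the Utx-deleted library they were 6.48 and 5.04 CPM, so Vcam1 was higher for hashtag 1 only. The iron exporter Slc40a1 stood at 2.63 and 4.02 CPM (0.58, -0.04 to 1.30).

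**Figure D5:**
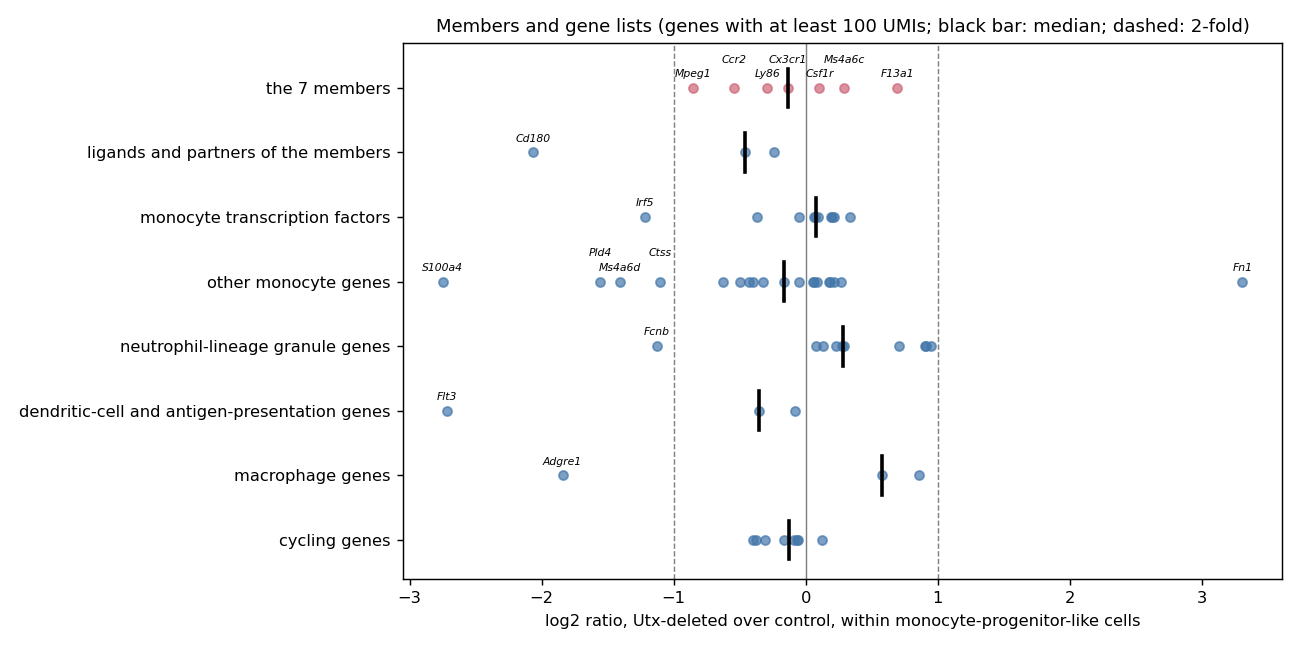
Log2 ratio of the Utx-deleted over the control library within monocyte-progenitor-like cells (horizontal axis) for the 7 genes (red) and 7 gene lists (blue), each point a gene with at least 100 UMIs. Black bars are medians (-0.14 for the 7 genes, 0.08 for transcription factors, -0.16 for other monocyte genes) and dashed lines mark 2-fold, past which Fn1 (3.31) lies on the right and S100a4, Flt3 and Cd180 lie farthest on the left.

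Over 37 points, each 1 cluster in 1 library with at least 20 cells, the 10 genes with the profile most like the mean of the 7 were Apba1, Pld4, Clec10a, Met, Irf8, Klf4, Rassf4, Stxbp6, Pkib and Ms4a6d, with Pearson's r from 0.92 to 0.89 among 13558 genes. The points share libraries and depth, and no test was made. Within the monocyte-progenitor-like cells Apba1 (301.5 and 336.9 CPM) and Rassf4 (101.5 and 99.9 CPM) were at like levels in both libraries, while Pld4 and Ms4a6d were lower in the Utx-deleted cells. Among the 7 genes themselves, Ly86 and Ms4a6c had the most similar profiles (r = 0.87) and F13a1 and Mpeg1 the least (r = 0.26).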

How the data were processed

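The deposited matrices hold raw counts of UMIs per gene or antibody tag and cell barcode, not normalized, made by the authors with Cell Ranger 7.1.0 on mm10, per the submitters' processing notes. The annotation and the rule for calling cells are not given in the sources used here. The members and gene lists were chosen with earlier results of these data known, and the scoring rule for naming clusters was taken over from earlier work on them. The genes named are the 7 members, the listed genes and the 10 genes of most similar profile.

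Cells with at least 500 genes and under 10% mitochondrial UMIs were kept (7827 and 7883 barcodes in, 7011 and 7206 kept). Scrublet's automatic threshold marked 0.0134% and 0% and had not worked, so barcodes in the highest 6% of scores (467 and 463) were removed. This treatment of doublets is incomplete, and 204 and 451 kept barcodes carried both hashtags. A hashtag was called at 100 UMIs and 5 times the other.

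Clustering used Python 3.11.15, scanpy 1.11.5, scikit-learn 1.9.0 and leidenalg 0.10.2: counts scaled to 10000 per cell and log-transformed, 2000 variable genes without the members, Kdm6a and sex-specific genes, 30 components, 15 neighbours and resolution 1, with no adjustment between libraries. Of 21 clusters, 17 were named, each by the marker list with the largest average z-score, requiring 3 markers in 25% of cells and a margin of 0.25. The others stayed unnamed.

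Sums of UMIs were compared as log2 ratios after adding 1 UMI to both, and the background was all genes reaching 100 UMIs. Intervals came from scipy 1.17.1, and TMM factors from edgeR 4.0.16. Of the gene identifiers, 99.6% were in GENCODE M21. The ratio and thinning steps were tested on simulated counts. Alternatives were other cell and doublet filters, single hashtags, resolutions 0.5 and 2, own scores, scaling, thinning, the same class weights in both libraries, UMI minimums of 20 and 500 and a 1.5-fold threshold. Further alternatives, chosen after seeing the data, were classes by overlap, thinning to 10000 UMIs and leaving out the tenth of cells with the most UMIs.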

Additional observations from a re-analysis of the deposited data

How the results depend on the processing

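No paired analysis was possible because each group has 1 library. Within monocyte-progenitor-like cells, F13a1 (0.58 to 0.88), Ms4a6c (0.15 to 0.47), Ly86 (-0.49 to -0.11) and Mpeg1 (-1.48 to -0.23) kept their sign under all 14 alternatives. Ccr2 kept it under 13 and its log2 ratio was 0.0692 with own scores, where the median of the members was 0.26. The cause was not tested. Over all kept cells, the same class weights in both libraries turned Ly86 to -0.27, Ccr2 to -0.46 and the median of the members to -0.27. That setting evens out the class shares and leaves out cells of other classes, and the part of each was not tested. That median was 0.61 for hashtag 2, 0.999 without the tenth of cells with the most UMIs, 0.53 with TMM scaling, which shifts all ratios by 0.12, and 0.80 after thinning to 2000 UMIs.

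The difference in the share of monocyte-progenitor-like cells, 4.52 percentage points, was 1.96 for hashtag 1, 7.03 for hashtag 2, 1.32 at resolution 2 and 1.57 with own scores. At resolution 2 the name went to finer cluster 17 alone, and with the unnamed finer cluster 12, all of whose 486 cells were of the class, the difference was 5.08. At resolution 0.5, and without barcodes carrying both hashtags, the cells formed a cluster that the naming rule left unnamed, so the planned values could not be had. Taking the clusters that consist mainly of these cells gave 4.81 and 4.70. The difference in cells with at least 3 members, 1.62 points, was 0.76 for hashtag 1 (-0.01 to 1.54), 2.41 for hashtag 2, 4.44 at 2 UMIs, 4.87 unthinned, 3.96 for at least 2 members and 0.57 for at least 4.

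Genes at least 2-fold higher and lower over all kept cells, 188 and 727, were 73 and 294 after thinning to 2000 UMIs, 407 and 1252 at a UMI minimum of 20, 77 and 353 at 500, and 430 and 1435 past 1.5-fold, with 123 higher for hashtag 1. Within the class, 85 and 142 were 12 and 6 after thinning, 294 and 375 at a minimum of 20, 28 and 36 at 500, 315 and 383 past 1.5-fold, and 32 and 80 for hashtag 1. There were 71 lower at resolution 2. There were 143 higher without doublet removal, and 137 and 129 higher in clusters that consist mainly of these cells at resolutions 0.5 and 2.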

Other observations

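Single monocyte-progenitor-like cells varied widely within each library. Per 10000 UMIs of a cell, F13a1 had a median of 7.13 in control cells, with 1.13 at the 10th and 17.4 at the 90th percentile, and a median of 12.1 in Utx-deleted cells, with 4.03 and 25.2. The whole distribution lay higher in the Utx-deleted cells, but the ranges overlapped broadly. Ccr2 had medians of 0.98 and 0.35 and Mpeg1 of 0.35 and 0.

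Of the 187 control cells and 18 Utx-deleted cells of the Flt3-led finer cluster, 79 and 12 belonged to the monocyte-progenitor-like class, and the values here are for the whole cluster. F13a1 was at 400.0 CPM in its control cells, against 852.3 and 927.1 CPM in finer clusters 12 and 17. Its Utx-deleted cells had F13a1 at 1020 CPM, Mpeg1 at 58.5 CPM (42.2 in control cells) and Cx3cr1 at 37.8 CPM (14.9). Ly86 was at 109.4 CPM in control and 156.7 CPM in Utx-deleted cells (log2 ratio 0.53, 0.17 to 0.85) and Csf1r at 26.3 and 47.2 CPM (0.89, 0.17 to 1.46), so that Ly86 was higher there and lower in finer clusters 12 and 17. Mpeg1 rested on 31 UMIs in the Utx-deleted cells, and the interval of its log2 ratio was -0.12 to 1.01.

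The antibody tag against CD16/32, the Fc gamma receptors II and III of myeloid progenitors, had a median of 874 UMIs in control and 455 in Utx-deleted monocyte-progenitor-like cells, while the transcript of Fcgr3 was at 110.2 and 116.7 CPM. Tag counts were not scaled for the depth of the tag libraries. The Kit tag stood at 126 and 130 UMIs in the same cells. The CD16/32 tag was also lower in neutrophil-progenitor-like (519 and 264) and maturing-neutrophil-like cells (475 and 308). It was higher in dendritic-cell-like (149 and 449) and HSC/MPP-like cells (98 and 135).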
